A study of Mus musculus with 8 samples.

Results

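The epithelial keratins described here are 10 genes, Krt5, Krt14, Krt15, Krt17, Krt6a, Krt7, Krt8, Krt18, Krt19 and Krt23, picked by symbol out of the 38293 gene identifiers of the bulk count tables. Another 44 keratin genes are in those tables, and 19 of them had at least 1 read. RNA was sequenced from organoids of mouse mammary tumors, in bulk from 2 control lines (WT1 and WT3) and 3 SOX4KO lines (H7, M4 and H4), and in single cells from 1 control library (GR17) and 2 SOX4KO libraries (GR18 and GR19). All 8 libraries came from the MMTV-PyMT; MMTV-Cre; Ecadherin-mCFP model, in which the MMTV promoter drives the PyMT oncogene and Cre in mammary epithelium, so control and SOX4KO organoids share these alleles. They were cultured with B27 and FGF2 and taken 4 days after plating as single cells. SOX4KO lines carry a CRISPR/Cas9 indel in the gene of the transcription factor SOX4. Every line is 1 clone, which limits each line as a model, and the labels do not tie the single-cell libraries to the bulk lines.

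Keratins build the intermediate filaments of epithelial cells. A type I chain always pairs with a type II chain, as in Krt14 with Krt5 or Krt18 with Krt8. In the mammary gland the myoepithelial (basal) layer is known for Krt5, Krt14 and Krt17 and the luminal layer for Krt8, Krt18 and Krt19, and Krt7 is a luminal simple-epithelial keratin. Cells that hold keratins of both layers are known from the embryonic gland and from tumors. These names are used below for a basal class (Krt5, Krt14, Krt17) and a luminal class (Krt7, Krt8, Krt18, Krt19), while Krt15, Krt6a and Krt23 belong to neither. Filaments are anchored at desmosomes between cells and at hemidesmosomes on the matrix.

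The type II members lie on chromosome 15 together with the type I gene Krt18, and the other type I members lie on chromosome 11. RefSeq promoters of GRCm38.p6 were matched for 6 of the 10 members. The 5 shown are those of the basal pair (Krt5, Krt14), the luminal pair (Krt8, Krt18) and Krt23, the member that passed the bulk test. Each is the 250 bases before the gene start, 5′ to 3′ on the gene's strand. Krt5 is at chr15:101712906-101713155 (minus strand), Krt14 at chr11:100206031-100206280 (minus), Krt8 at chr15:102004343-102004592 (minus), Krt18 at chr15:102027966-102028215 (plus) and Krt23 at chr11:99493121-99493370 (minus). Capitals mark matches, on either strand, to the SOX core ACAAAG or ACAATG, the AP-2 letters GCCNNNGGC or TATAAA.
Krt5: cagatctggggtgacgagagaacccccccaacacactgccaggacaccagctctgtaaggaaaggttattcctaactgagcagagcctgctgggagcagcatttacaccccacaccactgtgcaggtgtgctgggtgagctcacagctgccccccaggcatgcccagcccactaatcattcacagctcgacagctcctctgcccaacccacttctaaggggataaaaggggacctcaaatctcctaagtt
Krt14: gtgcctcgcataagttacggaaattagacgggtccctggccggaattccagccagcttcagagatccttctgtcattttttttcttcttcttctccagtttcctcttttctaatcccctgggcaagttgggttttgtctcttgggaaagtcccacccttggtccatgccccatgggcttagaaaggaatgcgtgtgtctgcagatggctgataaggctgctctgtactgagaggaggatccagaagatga
Krt8: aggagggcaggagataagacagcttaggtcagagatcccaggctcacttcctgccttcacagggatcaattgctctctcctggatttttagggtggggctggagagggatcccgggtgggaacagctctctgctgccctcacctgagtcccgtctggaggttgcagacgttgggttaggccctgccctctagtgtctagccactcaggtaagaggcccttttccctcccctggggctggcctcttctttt
Krt18: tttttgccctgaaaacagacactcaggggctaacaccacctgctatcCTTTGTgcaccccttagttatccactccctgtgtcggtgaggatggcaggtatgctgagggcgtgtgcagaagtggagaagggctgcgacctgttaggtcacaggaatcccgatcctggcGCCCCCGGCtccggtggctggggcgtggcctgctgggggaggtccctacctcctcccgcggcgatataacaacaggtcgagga
Krt23: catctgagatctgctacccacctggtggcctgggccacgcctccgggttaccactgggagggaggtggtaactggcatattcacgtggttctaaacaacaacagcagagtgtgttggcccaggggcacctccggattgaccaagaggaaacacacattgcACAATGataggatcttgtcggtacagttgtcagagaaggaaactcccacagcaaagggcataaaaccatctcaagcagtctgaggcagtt

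Krt18 and Krt8 start 23874 bases apart and point in opposite directions. ACAAAG was found in the Krt18 window alone among these 5, on the reverse strand, from 203 bases before the start. ACAATG was found in the Krt23 window alone, from 90 bases before the start. GCCNNNGGC was found in Krt18, from 83 bases before the start, and at 2 places in the promoter of Krt7, which is not shown. The windows of Krt5, Krt14 and Krt8 held none of the 4 motifs. Of 32841 mouse promoters of the same length, 16.5% held ACAAAG, 10.7% ACAATG, 13.7% GCCNNNGGC and 12.4% TATAAA. A match is a description of letters and shows no binding.

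In bulk, 3050323 to 4678497 reads per library fell on genes, and member keratins took 0.132% to 0.221% of them. The single-cell libraries held 7714119 to 8296953 UMIs in 362 to 369 wells with at least 1000 UMIs, and member keratins took 0.319% to 0.502%. Sox4 RNA stood at 295 and 374 normalized CPM in the control lines and at 199, 178 and 299 in H7, M4 and H4, and at 118, 82.5 and 110 CPM in GR17, GR18 and GR19. An indel need not lower the RNA, so this level does not test the labels.

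In bulk, keratin RNA of the control lines was dominated by the luminal pair, and on average the same pair led in the SOX4KO lines. Levels are compared between genes as normalized CPM per kilobase of the principal transcript. Krt18 had the highest mean in both groups, with 438 and 458 in the control lines and 274 to 343 in the SOX4KO lines. Krt8 came next, with 233 and 241 in control and 164 to 240 in SOX4KO lines (239.9 in M4). Krt14 followed with 138 and 141 in control lines, and the first 3 ranges in control did not overlap. Below them Krt19, Krt5, Krt7, Krt15 and Krt23 stood between 21.8 and 87.1 in the control lines, and each neighbor in that order overlapped the next. Krt17 and Krt6a were the lowest, at 5.14 to 7.51 and 0.227 to 0.874. In the SOX4KO lines Krt14 ranged from 63.3 to 354, across the ranges of both Krt18 and Krt8, and in M4 it stood above Krt18 (354 against 328). Neighboring ranges overlapped there from Krt8 down to Krt7.

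**Figure D1:**
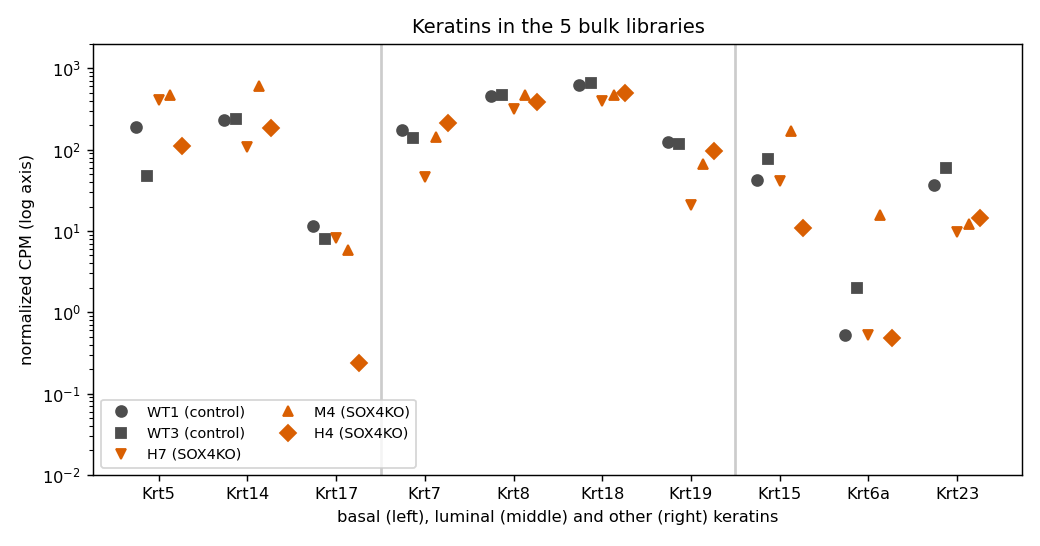
Normalized CPM (log axis) of the 10 keratins in each bulk library, with control lines in gray and SOX4KO lines in orange, each point 1 library. Krt18, Krt19 and Krt23 have all 3 SOX4KO lines below both control lines, and for the other keratins the groups overlap.

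Whether loss of SOX4 moved these keratins was asked by comparing the 3 SOX4KO lines with the 2 control lines. Of the 10 members, 9 had enough reads to be tested, and 1 passed, Krt23, which fell. Calls at an adjusted p under 0.1 (edgeR's quasi-likelihood test) made up 6.27% of the 11682 genes tested, and calls of lower expression 2.17%. The median log2 fold change was -0.25 over the 9 members and 0.0087 over all genes tested. For 3 of the 9 (Krt18, Krt19, Krt23) every SOX4KO line lay below both control lines, against 17.9% of all genes tested. No member had every SOX4KO line above both, against 19% of all genes tested. The number of called members was 2 in DESeq2 (Krt18 added, 8.55% of genes called), 5 with no filter on low counts (9.4%, Krt5, Krt17, Krt6a and Krt19 added), 2 without H4 (Krt5 added, 6.92%) and 0 without WT3 (0.47%), where edgeR gave 1 member an unadjusted p under 0.05. Bulk RNA cannot tell fewer cells of a type from less RNA per cell.

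Krt23, a type I keratin (ENSMUSG00000006777), had 36.5 and 59.1 normalized CPM in WT1 and WT3 and 9.65, 12.2 and 14.4 in H7, M4 and H4. The highest SOX4KO line was thus well under the lower control line. Control lines averaged 47.8 ± 16.01 (SD, n = 2) and SOX4KO lines 12.1 ± 2.36 (SD, n = 3), a log2 fold change of -1.98 (SE 0.27, edgeR adjusted p = 0.013). Without WT3 the log2 fold change was -1.59 and Krt23 was not called. That fit has 1 control line left, and its calls were few across all genes. Among the other keratin genes 3 could be tested and 1 was called, Krt79, a type II keratin. Krt79 had 28.99 and 19.5 normalized CPM in WT1 and WT3 and 4.44, 8.28 and 3.59 in H7, M4 and H4. It fell by 2.19 on the log2 scale (edgeR adjusted p = 0.028), and the adjusted p was 0.19 without WT1 and 0.14 without WT3.

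The luminal pair varied little. Krt8 (ENSMUSG00000049382), the type II partner, had 456 and 471 normalized CPM in WT1 and WT3 and 321, 469.7 and 381 in H7, M4 and H4. M4 lay between the control lines, and H7 and H4 lay below them. Its log2 fold change was -0.25 (SE 0.20, edgeR adjusted p = 0.60). Krt18 (ENSMUSG00000023043), the type I partner, had 629 and 658 normalized CPM in the control lines and 394, 472 and 493 in H7, M4 and H4, with no overlap. Its log2 fold change of -0.51 (SE 0.18) missed the threshold in edgeR (adjusted p = 0.20) and passed in DESeq2 (adjusted p = 0.074). The ratio of Krt18 to Krt8 reads per kilobase was 1.88 and 1.90 in control lines and 1.67, 1.37 and 1.76 in H7, M4 and H4. These groups did not overlap, and the exact permutation test gave p = 0.20, the smallest that 2 lines against 3 allow.

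Krt19 (ENSMUSG00000020911), a type I keratin of simple epithelia, had 124 and 117 normalized CPM in control lines and 20.6, 66.2 and 96.3 in H7, M4 and H4. All SOX4KO lines were lower, but they spread 4.67-fold among themselves, and the log2 fold change of -0.98 (SE 0.48) did not pass (edgeR adjusted p = 0.34). Krt7 (ENSMUSG00000023039), type II, had 174 and 139 normalized CPM in WT1 and WT3 and 46.7, 145 and 211 in H7, M4 and H4. H7 lay below and H4 above both control lines. Its log2 fold change was -0.22 (SE 0.49, edgeR adjusted p = 0.87).

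Krt5 and Krt14 spread widely among the SOX4KO lines, by 4.23-fold and 5.6-fold, and Krt5 also differed 4.0-fold between the control lines. Krt5 (ENSMUSG00000061527), type II, had 191 and 47.8 normalized CPM in WT1 and WT3 and 409.6, 472 and 112 in H7, M4 and H4. H7 and M4 were above both control lines, and H4 lay between them. Its log2 fold change of 1.47 (SE 0.69) did not pass (edgeR adjusted p = 0.31). Krt14 (ENSMUSG00000045545), type I, had 235 and 240.2 normalized CPM in the control lines and 107, 601.5 and 187 in H7, M4 and H4. The control lines differed by 1.02-fold and the SOX4KO lines by 5.6-fold, with M4 high and H7 low. Its log2 fold change was 0.33 (SE 0.60, edgeR adjusted p = 0.83), and it was -0.69 without M4 (adjusted p = 0.19).

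Krt14 and Krt5 did not hold a fixed ratio across lines. Per kilobase, the ratio of Krt14 to Krt5 was 1.59 and 6.502 in WT1 and WT3 and 0.34, 1.65 and 2.17 in H7, M4 and H4. Krt5 thus exceeded Krt14 in H7 alone, and the groups overlapped (exact permutation p = 0.60). Krt17 (ENSMUSG00000035557), a type I keratin also induced in stressed and wounded epithelium, had few reads. Its counts were 45 and 40 in WT1 and WT3 and 31, 16 and 1 in H7, M4 and H4. H4 stood apart from the rest, and the log2 fold change of -1.08 (SE 0.78) did not pass (edgeR adjusted p = 0.54).

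Krt15 and Krt6a followed the line rather than the group. Krt15 (ENSMUSG00000054146), a type I keratin of basal stratified cells, had 42.2 and 76.9 normalized CPM in control lines and 40.96, 169 and 11.02 in H7, M4 and H4. M4 was the highest and H4 the lowest of all 5 lines, a 15.4-fold range, and the log2 fold change was 0.28 (SE 0.85, edgeR adjusted p = 0.91). Krt6a (ENSMUSG00000058354), a type II keratin of activated epithelium, was not tested because of its low counts, which were 2 and 10 in WT1 and WT3 and 2, 44 and 2 in H7, M4 and H4. M4 held most of its reads. Of its transcript, 49.5% of 50-base stretches also occur in a transcript of another gene, chiefly Krt6b, so its reads are uncertain. That share was 26.9% for Krt8, all with Krt8-ps, 14.4% for Krt14, 8.52% for Krt5 and at most 4.0% for the other members.

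The basal class took 22.7% and 17.3% of basal and luminal keratin reads per kilobase in WT1 and WT3, and 35.5%, 47.01% and 19.9% in H7, M4 and H4. H7 and M4 were above the control lines, and H4 lay between them. M4, the highest here and for Krt5, Krt14, Krt15 and Krt6a, also stood apart in quality measures. It had the fewest counted reads, and 83.85% of its read lines were not assigned to a gene (71.64% to 78.75% in the others). Many of these lines were not uniquely aligned. Mitochondrial genes took 7.66% of its reads (3.97% to 5.45% in the others). Their part in these values was not tested. The means were 20% ± 3.88 (SD, n = 2) and 34.1% ± 13.6 (SD, n = 3), a difference of 14.1 percentage points (exact permutation p = 0.40, two-sided). It was 7.69 points without M4. The ratio of type I to type II member reads per kilobase was 1.96 and 2.563 in control lines and 1.07, 1.68 and 1.78 in H7, M4 and H4. All SOX4KO lines were lower, by 0.75 on average (exact permutation p = 0.20).

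Genes that anchor keratin filaments were compared in the same fit. Of 15 desmosome and plakin genes 11 were tested, and 3 rose (Pkp1, Pkp4 and Perp), beside 4.1% of all genes called higher. Their median log2 fold change was 0.49. Pkp1, a plakophilin that links desmosomes to keratin, had 68.9 and 46.8 normalized CPM in control lines and 92.9, 140 and 246 in H7, M4 and H4. It rose by 1.47 on the log2 scale (edgeR adjusted p = 0.093). Dsp, the plakin that binds the filaments, had 288 and 248 in control and 311, 369 and 451 in SOX4KO lines, and did not pass (edgeR adjusted p = 0.27). Of the 9 hemidesmosome genes, all tested, 1 rose, Lama3 (log2 fold change 1.56, edgeR adjusted p = 0.094), and the median was 0.66. Among 14 other intermediate filament genes, 6 were tested. Vim (log2 fold change 1.61) and Synm (3.84) rose and Lmnb1 (-1.26) fell.

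Markers of the layers other than keratins are given beside the keratins, and their part in the keratin values was not tested. For all marker lists, the shares to compare are the 4.1% of all genes tested that were called higher and the 2.17% called lower. Of 12 basal markers 7 were tested and 4 rose, Oxtr, Jag2, Sparc and Igfbp3, while Lgr5 fell. The summed level of the basal markers was 1814 and 1111 normalized CPM in control and 2368 to 6529 in SOX4KO lines. Sparc, left out after its values were seen, made up most of it. Without Sparc the basal sum was 511.8 and 378.4 in WT1 and WT3 and 873.5, 1186 and 675.6 in H7, M4 and H4. The contractile markers Acta2, Cnn1 and Tagln had too few reads to be tested. Of 20 luminal markers 17 were tested. Cd24a, Prom1 and Ehf fell and Esr1 rose. The summed level was 6280 and 6342 in WT1 and WT3 and 6045, 5787 and 11049.2 in H7, M4 and H4. Lcn2 and Csn3, left out after their values were seen, had positive log2 fold changes (0.91 and 1.81, neither called). Without them the luminal sum was 3777 and 3897 in WT1 and WT3 and 2148, 2476 and 2871 in H7, M4 and H4. The groups overlapped in the full sum and not in this one. Of all genes tested, 17.9% had every SOX4KO line below both control lines. Of 10 squamous markers 2 were tested and Sfn rose. Of 8 fibroblast markers 5 were tested and Col1a1 fell, with sums of 205 and 322 in control and 137 to 148 in SOX4KO lines. Of 8 immune markers only Cd68 could be tested, and it was not called (edgeR adjusted p = 0.25). Their sum was 1.59 to 14.4 normalized CPM, the highest in H7, and Cd3e, Adgre1, Itgam and Lyz2 had no read. Of 6 endothelial markers none had enough reads to be tested, their sum was 1.29 to 3.96, and Cdh5, Kdr and Emcn had no read. The epithelial marker Epcam stood at 593 to 865 normalized CPM in all 5 lines.

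In single cells the question was which keratins share a cell. With 1 control library no test was made, and values are CPM of UMIs summed over wells, with exact 95% Poisson intervals that cover counting error only. The basal pair was higher in these libraries than any luminal keratin, with the exception of Krt5 in GR19. Krt5 had 1867 CPM (1837 to 1898) in GR17, 1466 (1439 to 1493) in GR18 and 519 (504 to 535) in GR19. Krt14 had 1586 (1558 to 1615), 1662 (1634 to 1690) and 1019 (997 to 1041). GR19 was the lowest for both, by 3.6-fold against GR17 for Krt5 and 1.56-fold for Krt14.

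Krt17 was the only member past 2-fold the same way in both SOX4KO libraries. It had 152 CPM (144 to 161) in GR17, 4.5 (3.15 to 6.22) in GR18 and 1.45 (0.747 to 2.53) in GR19, from 1174, 36 and 12 UMIs. That is 33.9-fold and 105-fold lower. With GR18 left out Krt5 was past the fold too, beside 3.62% of genes. Among 6303 genes that averaged at least 20 CPM, which include 7 members, 2.24% were past the fold in either direction and 0.317% were lower. Krt17 met that average only through its level in GR17, so these shares are no test of its fall. In bulk, Krt17 had 11.7 and 7.97 normalized CPM in the control lines and 8.09, 5.76 and 0.24 in H7, M4 and H4. H7 and M4 were thus near WT3, and H4, with its 1 read, was the lowest by far.

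The luminal keratins all stayed within 2-fold of GR17. Krt8 had 581 CPM (564 to 599) in GR17, 709 (691 to 728) in GR18 and 884 (864 to 905) in GR19. Krt18 had 281 (270 to 293), 228 (218 to 239) and 312 (300 to 324). Krt7 had 520 (504 to 536), 333 (321 to 346) and 411 (397 to 425). Krt19 had 16.5 (13.7 to 19.6), 24.3 (21.05 to 28.01) and 32.5 (28.8 to 36.7). GR19 thus had the most Krt8 and Krt19 and the least Krt5 and Krt14. Krt15 stood at 5.96, 14.2 and 7.71 CPM and Krt6a at 6.87, 5.49 and 1.57. Krt23 had 3, 5 and 9 UMIs in the 3 libraries, too few to compare.

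**Figure D2:**
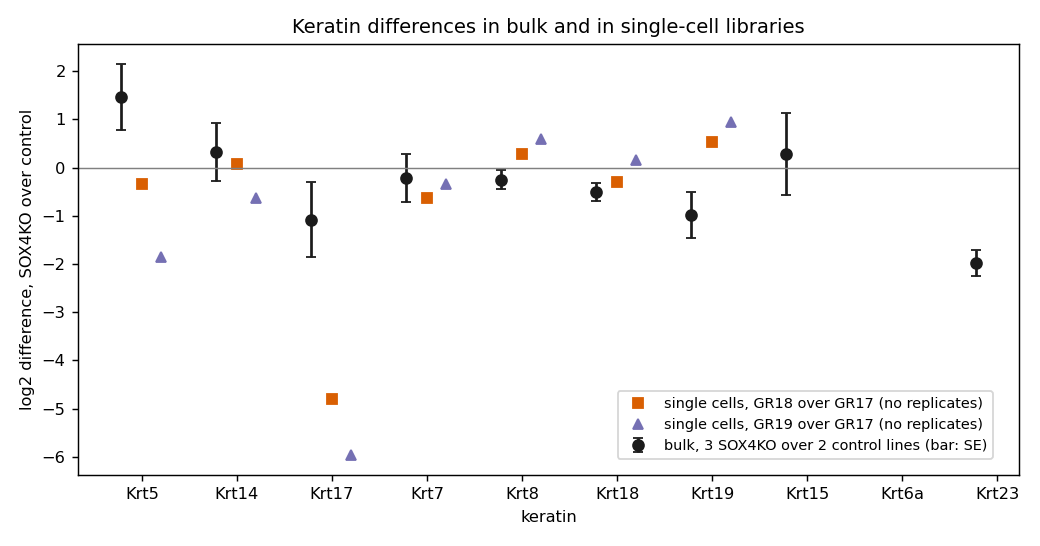
Log2 difference of SOX4KO over control for each keratin, in bulk (black, with SE, n = 3 and 2 lines) and in the single-cell libraries GR18 and GR19 over GR17 (orange and purple, no replicates). Krt17 in single cells (-4.80 and -5.97, with 1 CPM added) and Krt23 in bulk (-1.98) lie farthest below 0. Krt19 is below 0 in bulk and above 0 in both single-cell libraries.

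The libraries differ in depth per well, so cells were thinned to 10000 UMIs, which left 334, 330 and 342 cells of GR17, GR18 and GR19 and left out 35, 39 and 20 shallower wells. A cell was counted as positive for a class with at least 3 of its UMIs. Cells positive for both classes made up 92.2% of GR17 (308 of 334, exact 95% binomial interval 88.8% to 94.9%). They made up 89.1% of GR18 (85.2% to 92.2%) and 72.8% of GR19 (67.8% to 77.5%). Without thinning the shares were 97.02%, 96.5% and 87.8%. In all 3 libraries most cells thus had at least 3 UMIs of each class, and the share was lowest in GR19.

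Cells positive for the luminal class alone numbered 22 (6.59%), 32 (9.70%) and 87 (25.4%). Cells positive for the basal class alone numbered 4 (1.20%), 4 (1.21%) and 6 (1.75%). No cell was negative for both classes. Of the cells positive for the basal class, 98.7%, 98.7% and 97.7% were also positive for the luminal class. Among all cells the luminal-positive shares were about the same, 98.8%, 98.79% and 98.25%. The libraries thus differed mainly in the cells without basal keratins. Over cells, basal and luminal sums had Spearman correlations of -0.17, -0.24 and -0.22. With at least 10 UMIs of each class required, the double-positive shares were 48.5% (43.03% to 54.01%), 37.9% (32.6% to 43.4%) and 31.9% (26.96% to 37.1%). For Krt14 with Krt8 and Krt18 alone they were 77.5% (72.7% to 81.9%), 79.4% (74.6% to 83.6%) and 66.1% (60.8% to 71.1%).

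No cell type that lacks keratins was defined in these plates to give a background. The wells with under 1000 UMIs, 15, 15 and 22 in number, held 26, 9 and 13 member keratin UMIs, at most 5 in a well. None had 3 UMIs of each class. With 4513, 4341 and 5150 UMIs in all, they were too shallow to give a background for the double-positive shares. Kept wells had a median of 19845, 20525 and 21876.5 UMIs. Doublets were not called. Without wells of over 2 times the library's median, the double-positive shares were 92.3%, 89.7% and 73.7%. The well numbers 1 to 384 are shared by all 3 plates and mark positions, not cells.

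**Figure D3:**
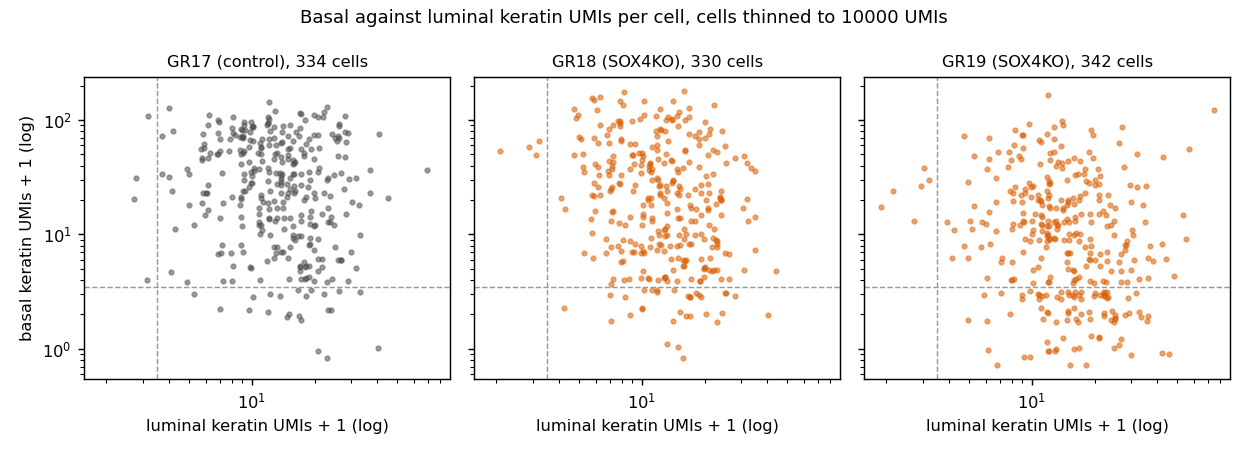
Basal against luminal keratin UMIs per cell, plus 1, on log axes with small jitter, in cells thinned to 10000 UMIs, each point 1 cell. Dashed lines mark 3 UMIs, and the cells in the upper right quadrant, positive for both classes, are 92.2%, 89.1% and 72.8% of the 3 libraries.

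The balance of the classes was graded from cell to cell. The basal share of basal and luminal keratin UMIs had a median of 68.6% in GR17 (quartiles 37.6% and 83.9%), 60.99% in GR18 (31.1% and 83.3%) and 41.7% in GR19 (13.3% and 65.5%). It ranged from 0% in each library to 98.2%, 98.2% and 95.8%. Between 10% and 90% lay 84.4%, 83.3% and 76.6% of cells. Under 10% lay 4.19%, 4.55% and 19.6% of cells. By these counts, with no background taken off, intermediate cells were the rule in every library. Cells of nearly luminal keratin alone were most frequent in GR19.

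Cells with Krt14 and little Krt5 were more frequent in the SOX4KO libraries, where the Krt5 level itself was lower. Krt14 had a median of 14.5, 13 and 8 UMIs per thinned cell in GR17, GR18 and GR19, and Krt5 of 8.5, 2.5 and 1. The highest Krt5 values were 96, 131 and 129 UMIs, so the single highest cells were in the SOX4KO libraries. The tenth of cells richest in Krt5 held 34.6%, 49.6% and 67.9% of its UMIs. Of the cells with at least 3 Krt14 UMIs, 19.5% (15.04% to 24.6%) in GR17, 41.5% (35.6% to 47.6%) in GR18 and 63.8% (57.5% to 69.8%) in GR19 had fewer than 3 of Krt5. Of the cells with at least 10 Krt14 UMIs, 4.46% (2.16% to 8.06%), 11.4% (7.28% to 16.8%) and 27.9% (20.8% to 35.9%) had no Krt5 UMI at all. The reverse was infrequent, since 9, 3 and 2 cells with at least 3 Krt5 UMIs had fewer than 3 of Krt14. The ratio of summed Krt14 to Krt5 UMIs was 0.85, 1.13 and 1.96.

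**Figure D4:**
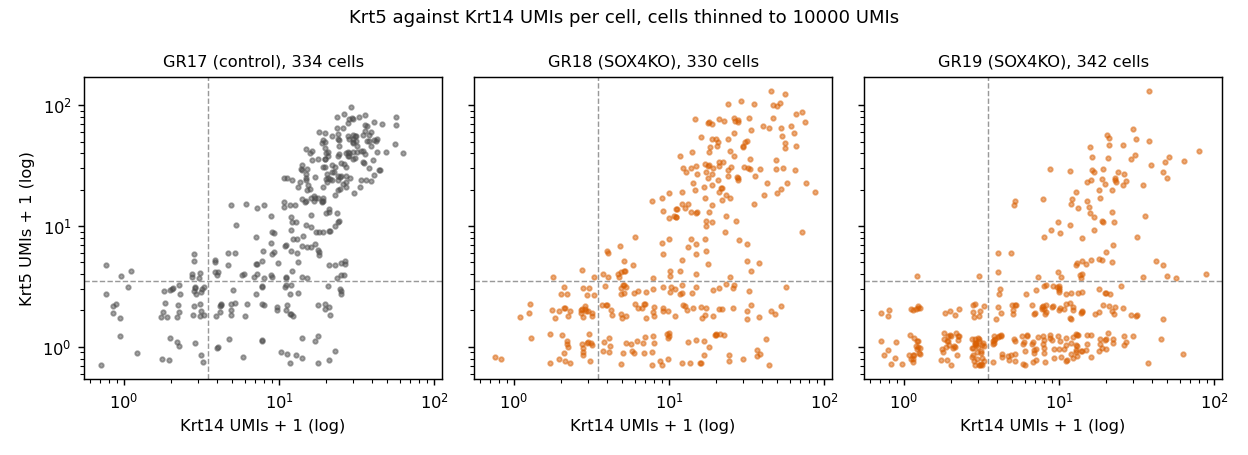
Krt5 against Krt14 UMIs per cell, plus 1, on log axes with small jitter, in cells thinned to 10000 UMIs, each point 1 cell, with dashed lines at 3 UMIs. Cells at the lower right, with Krt14 and fewer than 3 Krt5 UMIs, number 55 in GR17, 115 in GR18 and 157 in GR19.

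Krt17 was spread thinly over GR17. After thinning, 54.8% of GR17 cells had at least 1 UMI (49.3% to 60.2%), and the highest cell had 9. The shares were 3.64% (1.89% to 6.27%) in GR18 and 1.46% (0.476% to 3.38%) in GR19, with 2 UMIs in the highest cell of each. The unthinned shares were 67.2%, 6.504% and 2.21%. Krt8 was found in nearly all cells, with at least 1 UMI in 96.7%, 99.4% and 98.8% of thinned cells and medians of 5, 6 and 7. Krt18 had medians of 2, 1 and 2 and Krt7 of 4, 2 and 3. Krt19 was seen in 8.68%, 14.9% and 18.4% of cells. Krt15 and Krt6a were each seen in at most 7.27% of cells of any library, and single cells reached 12 UMIs of Krt15 (GR19) and 9 of Krt6a (GR18).

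Pairs of keratins were ranked against each other over the thinned cells of each library. These Spearman correlations are descriptions over cells of 1 library that share its plate and depth. Krt5 and Krt14 stood at 0.77 in GR17, 0.59 in GR18 and 0.55 in GR19. Krt8 and Krt18 stood at 0.37, 0.37 and 0.53. Krt14 and Krt18, type I keratins of the opposite layers, stood at -0.35, -0.46 and -0.50. Krt7 did not side with the other luminal keratins. It stood at 0.33, 0.31 and 0.33 with Krt14, at 0.12, 0.01 and 0.05 with Krt8 and at -0.04, -0.18 and -0.0065 with Krt18. Krt17 stood at 0.46 with Krt5 in GR17, and with its few UMIs at 0.11 and 0.16 in GR18 and GR19. With Krt7 left out of the luminal class, cells positive for both classes made up 85.9%, 86.1% and 69.01%.

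**Figure D5:**
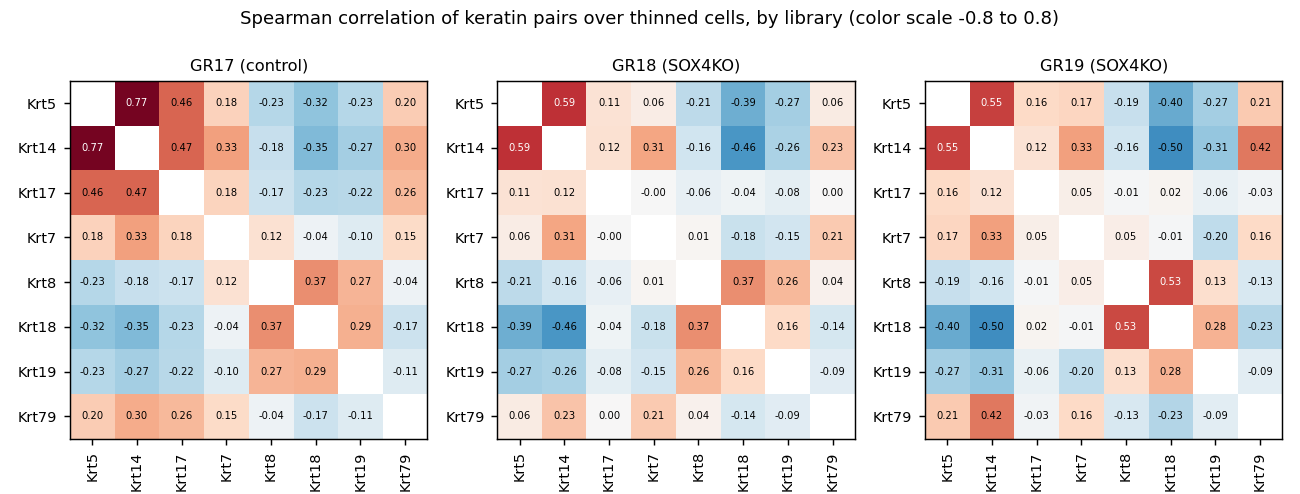
Spearman correlation of each keratin pair over thinned cells of GR17 (334 cells), GR18 (330) and GR19 (342), red above and blue below 0. Krt5 with Krt14 (0.77, 0.59, 0.55) and Krt8 with Krt18 (0.37, 0.37, 0.53) are positive in every library, and Krt14 with Krt18 is negative in every library.

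Type I and type II members varied together over cells, with a correlation of their summed UMIs of 0.77 in GR17, 0.63 in GR18 and 0.50 in GR19. The ratio of type I to type II UMIs was 0.69, 0.77 and 0.76, and that of Krt18 to Krt8 was 0.48, 0.32 and 0.35. The Krt18 to Krt8 ratio was thus lower in both SOX4KO libraries than in GR17, the same direction as in bulk. The type I to type II ratio went the other way between the assays. It was higher in both SOX4KO libraries than in GR17, and lower in all SOX4KO lines in bulk.

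The genes whose ranks were most like those of Krt14, over 5706 genes with at least 20 CPM in every library and keratins left out, were Sparc, Sfn, Col17a1, Serpinf1 and Cav1. Sparc, a secreted matrix protein, had correlations of 0.63, 0.68 and 0.56 in GR17, GR18 and GR19. Col17a1, a hemidesmosome collagen, had 0.52, 0.48 and 0.49. The most opposed were Cd14, Tm4sf1, Lcn2, Chi3l1 and Xbp1, with -0.59, -0.61 and -0.70 for Cd14. For Krt8 the values were weaker. Phlda1 (0.30, 0.29 and 0.30), Cd14, Cldn3, Anxa1 and Csn3 were most like it, and Sparc (-0.25, -0.31 and -0.33), Cmah, Serpinf1, Col17a1 and Nxn were most opposed. Sparc, Serpinf1 and Col17a1 thus stood on the side of Krt14 and against Krt8, and Cd14 on the side of Krt8 and against Krt14.

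The anchoring genes were also read in the single-cell libraries. Of 8 desmosome and plakin genes and 9 hemidesmosome genes with enough UMIs, none was past 2-fold in both SOX4KO libraries. Among all 6303 genes compared 2.24% were, so few or none would be past it at that share. Dsp had 347, 412 and 401 CPM, and Pkp1, which rose in bulk, had 176, 129 and 122. Of 14 luminal markers compared, Csn3, Lcn2 and Prlr were higher and Foxa1 and Prom1 lower past the fold. Of 4 basal markers Igfbp3 was higher. Over all genes compared, 1.92% were past the fold higher and 0.317% lower. Summed luminal markers were 4909, 8149 and 9884 CPM and summed basal markers 709, 1353 and 782 in GR17, GR18 and GR19. The 3 genes Lcn2, Csn3 and Sparc, chosen after their values were seen, weigh heavily in these sums. Without Lcn2 and Csn3 the luminal sum was 2026, 1803 and 1866 CPM, so that GR17 was the highest. Without Sparc, which stood at 593, 1152 and 595 CPM, the basal sum was 116, 202 and 187. The median log2 difference over the 4 basal markers compared was 0.97 in GR18 and 0.74 in GR19. The part of these markers in the keratin values was not tested. Fibroblast, immune and endothelial markers summed to at most 12.4, 8.99 and 3.76 CPM.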

How the data were processed

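The authors deposited 2 kinds of counts, neither of them normalized. Bulk files hold HTSeq read counts per Ensembl gene, and single-cell files hold UMI counts per gene and plate well. The submitters' processing notes name STAR 2.4.2a, the builds NCBIM37 and mm9, HTSeq and Seurat, without saying which step used which. Of the bulk read lines 71.6% to 83.8% were not assigned to a gene, and 45.7% to 52.9% of all lines were not uniquely aligned. These stayed out of library sizes.

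The bulk test was edgeR's glmQLFTest (edgeR 4.0.16, R 4.3.3) after filterByExpr and TMM, with Benjamini-Hochberg adjustment over all genes tested and calls at an adjusted p under 0.1. DESeq2 was an alternative. Symbols and transcript lengths came from GENCODE M21 (36345 of 38293 identifiers matched). Its build differs from those the notes name. Coordinates are printed only for RefSeq promoters, and these too are of GRCm38.p6 and not of the builds in the notes. Shares and ratios were compared by an exact two-sided permutation test over lines.

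Single-cell wells needed at least 1000 UMIs, spike-ins excluded. Library differences were taken with 1 CPM added. Co-expression used cells thinned without replacement to 10000 UMIs. Steps were tested on simulated data. Genes named outside the members were those of each marker list that bulk called, keratins that bulk called, and the 5 genes at each end of the Krt14 and Krt8 rankings; uncalled marker genes given as a check of cell types or for having too few reads (such as Epcam, Cd68, Acta2 and Cdh5), Dsp, and the single-cell markers past the fold or weighing heavily in a sum were added after their values were seen. The members and all lists were chosen with earlier results of these data known. No column of another series was used.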

Additional observations from a re-analysis of the deposited data

Results flagged for a closer look

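Wells left out for having under 1000 UMIs still held keratin UMIs, with 26 in GR17, 9 in GR18 and 13 in GR19. A sum over 3 was enough for the flag. They were spread over 12 of 15, 7 of 15 and 8 of 22 wells, among 4513, 4341 and 5150 UMIs in all, and 8 wells were low in all 3 plates. Basal keratins gave 17, 6 and 7 of these UMIs and luminal keratins 8, 3 and 6. In the kept wells member keratins took 0.502%, 0.445% and 0.319% of UMIs, so some keratin UMIs are to be looked for in shallow wells too.

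Krt19 lay on opposite sides of control in bulk and in single cells. All 3 SOX4KO bulk lines were below both control lines (log2 fold change -0.98, edgeR adjusted p = 0.34), and in single cells the log2 difference was 0.54 in GR18 and 0.94 in GR19 over GR17. The difference between the assays was not tested, and the labels do not say whether the lines are the same.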

How the results depend on the processing

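The number of member keratins called in bulk was 1 (Krt23) with edgeR, with DESeq2 size factors and at an adjusted p under 0.05. It was 2 with DESeq2 (Krt18 and Krt23), where 8.55% of genes were called. It was 5 with no filter beyond 1 count (Krt5, Krt17, Krt6a, Krt19 and Krt23), where 9.4% were called. The log2 fold changes of Krt5, Krt17 and Krt19 hardly moved there, but their SEs shrank, for Krt5 from 0.69 (log2 fold change 1.47) to 0.23 (1.46), and the cause was not tested. Leaving out each line gave 0 to 2 called members, with none without WT3 (0.47% of genes called) and Krt5 added without H4 (log2 fold change 1.89, edgeR adjusted p = 0.092). Over these leave-outs the log2 fold change of Krt14 ran from -0.69 to 0.73, of Krt15 from -1.22 to 0.81 and of Krt7 from -0.71 to 0.19, so their sign is set by the line left out. That of Krt23 ran from -2.29 to -1.59. The difference in basal share ran from 7.69 to 21.3 percentage points and that in the type I to type II ratio from -1.05 to -0.45, and both kept their sign with raw counts, with the length of all exons (added after seeing the data) and, for the share, with Krt15 and Krt6a added.

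In single cells 1 member (Krt17) was past the fold in every planned setting except with GR18 left out, when Krt5 joined it. Leaving out 1 library thus gave 1 to 2. The size for Krt17 depended on the CPM added, with log2 differences of -4.80 and -5.97 at 1 CPM and -3.484 and -3.825 at 10 CPM. The double-positive shares of GR17, GR18 and GR19 depended on depth and on the UMIs required. They were 74.8%, 67.7% and 55.9% after thinning to 5000 UMIs, and 97.02%, 96.5% and 87.8% without thinning. They were 99.1%, 99.1% and 93.3% at 1 UMI per class, and 48.5%, 37.9% and 31.9% at 10. With Krt7 left out of the luminal class, a choice made after seeing the data, GR17 stood at 85.9%. GR19 had the lowest share under each of these settings.

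A fit that leaves out a control line assumes that the lone control varies like the SOX4KO lines. No paired analysis was possible because the lines are independent clones and no label pairs them across groups. Krt17, Krt6a and Krt23 are limited by depth, with 1 Krt17 read in H4 and 3 to 9 Krt23 UMIs per single-cell library. With 2 control lines and 1 control library, differences between clones and the effect of the knockout cannot be told apart in single cells.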

Other observations

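The order of the keratins differed between the assays, which measure reads along transcripts in bulk and UMIs in single cells. Control lines had a mean of 9.81 normalized CPM of Krt17 in bulk, and GR17 had 152 CPM. Krt23 stood at 47.8 normalized CPM in bulk control and at 0.389 CPM in GR17, and Krt19 at 121 and 16.5. Krt79, called lower in bulk, had 53.7, 52.7 and 43.3 CPM in GR17, GR18 and GR19. Over cells Krt79 stood at 0.30, 0.23 and 0.42 with Krt14 and at -0.17, -0.14 and -0.23 with Krt18.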
